A study of Mus musculus with 12 samples.

Results

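Rapgefl1, Arl4d, Hexim1, Arhgap27, Arhgap27os3 and Tob1, 6 genes on mouse chromosome 11 within 10 Mb of Stat3, were followed across 12 RNA sequencing libraries of leukemic blasts. These genes were selected on their measured difference between STAT3β-deficient (Δβ) and wildtype (WT) blasts in these same libraries, together with their distance from Stat3, so their genotype differences are a description and carry no test. The cut on the measured values behind the choice is not given in the sources used here, so values just inside and just outside it cannot be stated. The 6 genes are among 451 genes of the deposited table within 10 Mb of Stat3 and among 24454 genes in all. All 6 passed the filter for testing, a mean of at least 10 normalized counts over the 12 libraries, as did 213 genes of the window and 11476 genes of the table.

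The blasts were fetal liver cells of WT or STAT3β-deficient mice, transformed by a retrovirus carrying the MLL-AF9 fusion oncogene coupled to the fluorophore Venus. They were transplanted into immunocompromised NSG mice, and Venus+ cells were sorted from the spleen (SP) and bone marrow (BM) once the animals were diseased. The Δβ cells carry a targeted Stat3 allele that no longer yields the shortened splice form STAT3β, while both genotypes carry the same oncogene and grew in the same host strain, which keeps its own stroma but lacks lymphocytes. Each genotype and organ has 3 poly-A enriched libraries, and neither the strain background of the donor mice nor whether the libraries of a group came from separate animals is given in the sources used here, so a p-value measures only the spread between these samples, which may be technical. Whether SP and BM libraries share animals is likewise not given, so a like difference in both organs may not be 2 independent observations.

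The unit throughout is the normalized count, a gene's read count divided by the size factor of its library, where 1 read was worth 0.775 to 1.17 normalized counts. Between 9001051 and 13859727 reads per library fell on genes. A floor of 3 reads was set for calling a gene expressed in a library, and it allows for counting error alone, because no molecular identifiers were reported. Log2 fold changes were taken on log2(normalized count + 1), which understates the change of low genes, and are given with their standard error (SE). The myeloid markers Ptprc, Spi1, Cebpa, Kit, Mpo, Itgam, Csf3r, Cd33, Fcgr3 and Ly6c2 had reads in all 12 libraries, and the hemoglobin genes Hba-a1, Hba-a2, Hbb-bs and Hbb-bt were listed at 0 in all 12. In bulk RNA of this kind, fewer cells that express a gene and less RNA per cell cannot be told apart.

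The 6 genes have unrelated jobs. Rapgefl1 encodes a protein related to the exchange factors that load the small GTPase Rap with GTP. Arl4d is a small GTPase of the ARF-like group that recruits cytohesins to the plasma membrane, and Arhgap27 is a GTPase-activating protein, which speeds the switching off of small GTPases. Arhgap27os3 is a non-coding transcript from the strand opposite to Arhgap27. Hexim1 binds the small nuclear RNA 7SK and holds the elongation kinase P-TEFb in an inactive state, and Tob1 is an antiproliferative protein of the BTG/TOB family that brings the CCR4-NOT deadenylase to messenger RNAs. Stat3 itself encodes a transcription factor activated by cytokine receptors. Genes that lie close together on a chromosome tend to be inherited together, which is the reason for looking at the surroundings of a targeted gene as a unit.

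The promoters of 4 transcripts are shown because these are the transcripts whose WT and Δβ libraries did not overlap in either organ. All windows run 5′ to 3′ on the strand of the gene, from 250 bases before to 50 bases after a RefSeq start site on GRCm38.p6, and 6 of 6 genes were matched. In the first 3 sequences capitals mark the motifs searched on both strands, namely TTCNNNGAA (the letters that STAT proteins favor), TGACGTCA (the cyclic AMP response element), GGGCGG (the GC box), CCAAT and TATAAA, with overlapping matches allowed. In the last, which holds none of them, capitals mark the bases between the start site of Arhgap27os3 and an inner start site of Arhgap27 on the other strand.
Rapgefl1 promoter, chr11:98836535-98836834, plus strand: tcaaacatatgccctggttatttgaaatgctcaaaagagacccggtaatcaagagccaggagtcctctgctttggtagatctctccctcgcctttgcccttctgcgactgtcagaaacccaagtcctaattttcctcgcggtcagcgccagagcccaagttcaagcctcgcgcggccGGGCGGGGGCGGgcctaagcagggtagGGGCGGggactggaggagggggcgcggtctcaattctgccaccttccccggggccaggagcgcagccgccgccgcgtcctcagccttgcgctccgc
Arl4d promoter, chr11:101665291-101665590, plus strand: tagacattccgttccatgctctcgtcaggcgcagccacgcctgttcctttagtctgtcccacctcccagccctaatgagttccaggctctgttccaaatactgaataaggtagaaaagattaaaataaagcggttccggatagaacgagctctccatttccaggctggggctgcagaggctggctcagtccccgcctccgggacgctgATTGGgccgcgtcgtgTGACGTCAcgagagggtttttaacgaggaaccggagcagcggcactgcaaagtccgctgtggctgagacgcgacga
Arhgap27 outer promoter, chr11:103363643-103363942, minus strand: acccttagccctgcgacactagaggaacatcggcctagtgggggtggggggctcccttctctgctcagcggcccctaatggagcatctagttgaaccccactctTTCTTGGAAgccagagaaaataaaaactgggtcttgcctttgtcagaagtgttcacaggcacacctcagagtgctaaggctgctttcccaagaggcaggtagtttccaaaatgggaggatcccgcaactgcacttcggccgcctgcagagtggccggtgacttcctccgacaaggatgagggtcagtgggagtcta
Arhgap27os3 promoter, chr11:103344503-103344802, plus strand: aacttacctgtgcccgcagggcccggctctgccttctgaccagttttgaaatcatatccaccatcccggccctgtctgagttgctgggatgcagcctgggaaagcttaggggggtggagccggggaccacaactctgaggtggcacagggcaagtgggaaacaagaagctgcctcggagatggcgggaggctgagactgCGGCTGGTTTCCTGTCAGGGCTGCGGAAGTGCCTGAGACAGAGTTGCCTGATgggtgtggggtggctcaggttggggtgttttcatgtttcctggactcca

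The Rapgefl1 window held 3 GGGCGG matches, of which a neighboring pair adjoins without a gap, and a GC content of 62.7% against a median of 52.7% over all 32851 promoter windows. The motif GGGCGG was present in 35.7% of those windows. The Arl4d window held 1 TGACGTCA, found in 1.79% of all windows, and 1 CCAAT, found in 37.4%. The outer Arhgap27 window was the only one of the windows examined for the 6 genes with a TTCNNNGAA match, which 8.3% of all windows hold, and the window at the inner Arhgap27 start held 1 CCAAT. The Hexim1 window (chr11:103116075-103116374, plus strand) held 1 GGGCGG and 1 CCAAT. The Tob1 window (chr11:94211204-94211503, plus strand) held 3 GGGCGG, 2 CCAAT and 1 TATAAA, the last present in 13.6% of windows. These matches describe letters in the windows and do not show that a factor binds there. The annotated starts of Arhgap27os3 (position 103344753) and of the shorter Arhgap27 transcript (position 103344702) lie 51 bases apart and point away from each other, while the outer start of Arhgap27 lies 18.99 kb from the inner one.

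Rapgefl1 (NM_001080925, Entrez gene 268480; chr11:98836785-98853009, plus strand, 2.03 Mb before Stat3 in coordinate order) had the largest genotype difference of the 6 in both organs with all libraries in the fit. In SP the WT libraries held 1.14, 9.54 and 7.10 normalized counts in replicates 1, 2 and 3, which are 1, 9 and 7 reads, so the first lies under the floor of 3 reads. The Δβ SP libraries held 119, 159 and 140 normalized counts. WT SP blasts were thus close to the detection limit for this gene, and every Δβ library lay far above them.

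In BM the WT libraries of Rapgefl1 held 85.3, 37.2 and 13.1 normalized counts and the Δβ libraries 89.2, 199 and 174. The BM groups did not overlap, yet WT BM replicate 1 at 85.3 and Δβ BM replicate 1 at 89.2 nearly touched. Group means were 5.93 ± 4.32 for WT and 139 ± 19.9 for Δβ in SP, and 45.2 ± 36.8 for WT and 154 ± 57.4 for Δβ in BM (SD, n = 3 each). Between the genotypes the log2 fold change, Δβ over WT, was 4.62 (SE 0.69) in SP and 2.03 (SE 0.69) in BM, and the Δβ mean was 23.5 times the WT mean in SP and 3.41 times in BM. Leaving out single libraries moved the log2 fold change from 3.92 (without WT SP replicate 1) to 5.07 (without WT SP replicate 2) in SP and from 1.35 (without WT BM replicate 3) to 2.66 (without WT BM replicate 1) in BM. Without WT BM replicate 3 the BM difference of Arhgap27os3, at 1.53, was larger than that of Rapgefl1. The smaller difference in BM went with a higher WT level there, since the Δβ means of the organs differed by less than their spread while WT BM lay above WT SP by more than the SD of either group on the log2 scale.

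Arl4d (NM_025404, Entrez gene 80981; chr11:101665541-101667832, plus strand, 0.726 Mb after Stat3) is the closest of the 6 to Stat3 and was lower in Δβ blasts. WT SP libraries held 38.7, 46.6 and 36.5 normalized counts and Δβ SP libraries 9.30, 13.4 and 6.41. WT BM libraries held 31.8, 32.7 and 43.3 and Δβ BM libraries 20.7, 11.7 and 22.8. The genotypes did not overlap in either organ. Means were 40.6 ± 5.31 for WT and 9.72 ± 3.54 for Δβ in SP, and 35.9 ± 6.42 for WT and 18.4 ± 5.89 for Δβ in BM (SD, n = 3 each). On the log2 scale the fold change was -2.00 (SE 0.36) in SP and -0.97 (SE 0.36) in BM, and the WT mean was 4.18 times the Δβ mean in SP and 1.95 times in BM. With 6 to 12 reads per Δβ SP library, the counting error of this gene is large.

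Arhgap27 (NM_183288, Entrez gene 544817; chr11:103331484-103363692, minus strand, 2.39 Mb after Stat3) was also lower in Δβ blasts, at a far higher level of expression. WT SP libraries held 2339, 2044 and 1454 normalized counts and Δβ SP libraries 1207, 979 and 1152. WT BM libraries held 1507, 1486 and 1723 and Δβ BM libraries 1157, 1093 and 1043. No Δβ library reached the lowest WT library of its organ, and WT SP was the most variable group. Means were 1946 ± 450.3 and 1113 ± 119 in WT and Δβ SP, and 1572 ± 131 and 1098 ± 57.0 in WT and Δβ BM (SD, n = 3 each). Arhgap27 had a log2 fold change of -0.78 (SE 0.16) in SP and -0.52 (SE 0.16) in BM, the smallest of the 6 in SP.

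Arhgap27os3 (NR_045346, Entrez gene 653030; chr11:103344753-103350126, plus strand, 2.41 Mb after Stat3) lies inside the span of Arhgap27 on the opposite strand and was higher in Δβ blasts, the reverse of Arhgap27. WT SP libraries held 70.7, 43.5 and 40.6 normalized counts and Δβ SP libraries 157, 98.6 and 121. WT BM libraries held 38.7, 50.7 and 30.2 and Δβ BM libraries 149, 113 and 131. The genotypes were apart in both organs. Means were 51.6 ± 16.6 and 126 ± 29.7 in WT and Δβ SP, and 39.9 ± 10.3 and 131 ± 17.8 in WT and Δβ BM (SD, n = 3 each). Its log2 fold change was 1.29 (SE 0.28) in SP and 1.71 (SE 0.28) in BM, and this was the only one of the 6 genes whose difference was larger in BM than in SP.

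The reads of Arhgap27os3, as a share of those of Arhgap27 in the same library, set the divergent pair side by side without any normalization. The share was 3.02%, 2.13% and 2.79% in WT SP and 13.0%, 10.1% and 10.5% in Δβ SP. In BM it was 2.57%, 3.41% and 1.75% in WT and 12.9%, 10.4% and 12.5% in Δβ. Each Δβ library was thus above every WT library of either organ, with group means of 2.65 ± 0.465% and 11.2 ± 1.61% for WT and Δβ in SP, and of 2.58 ± 0.829% and 11.9 ± 1.36% for WT and Δβ in BM (SD, n = 3 each). Both genes were chosen on their genotype differences, which run in opposite directions. The separation of the share by genotype therefore follows in part from that choice. In GENCODE M21 the exons of these genes share 0 bases, but Arhgap27os3 lies in the transcribed span of Arhgap27, and whether counting used strand is not given in the sources used here, so unspliced reads of Arhgap27 and reads of Arhgap27os3 cannot be told apart. Arhgap27 shares 1055 of its 6415 exon bases with Arhgap27os2 and 424 with Arhgap27os1 on the opposite strand, so its own count is uncertain to that extent.

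Hexim1 (NM_138753, Entrez gene 192231; chr11:103116325-103119725, plus strand, 2.18 Mb after Stat3) was lower in Δβ blasts with overlap in BM. WT SP libraries held 1316, 1277 and 821 normalized counts and Δβ SP libraries 540.2, 569 and 680.1. WT BM libraries held 864, 1054 and 1177 and Δβ BM libraries 553, 530.3 and 892. Δβ BM replicate 3, at 892, lay above WT BM replicate 1, at 864. Means were 1138 ± 275 and 596 ± 73.8 in WT and Δβ SP, and 1032 ± 158 and 659 ± 202 in WT and Δβ BM (SD, n = 3 each). This came to a log2 fold change of -0.91 (SE 0.23) in SP and -0.68 (SE 0.23) in BM.

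Tob1 (NM_009427, Entrez gene 22057; chr11:94209842-94215495, plus strand, 6.67 Mb before Stat3) is the farthest of the 6 from Stat3, and its genotypes were apart in SP and overlapped in BM. WT SP libraries held 628, 534 and 301 normalized counts and Δβ SP libraries 126, 155 and 149. WT BM libraries held 228, 247 and 438 and Δβ BM libraries 357, 146 and 308. The BM genotypes were interleaved. Means were 488 ± 168 and 143 ± 15.1 in WT and Δβ SP, and 304 ± 116 and 270.1 ± 110.2 in WT and Δβ BM (SD, n = 3 each). The log2 fold change was -1.70 (SE 0.37) in SP and -0.21 (SE 0.37) in BM, where leaving out single libraries moved it from -0.46 (without Δβ BM replicate 1) to 0.09 (without WT BM replicate 3) and 0.19 (without Δβ BM replicate 2). The difference of the SP and BM genotype differences was -1.49 (SE 0.53) for Tob1, 2.59 (SE 0.98) for Rapgefl1 and -1.04 (SE 0.51) for Arl4d on the log2 scale, and it was -0.23 (SE 0.33), -0.27 (SE 0.23) and -0.43 (SE 0.40) for Hexim1, Arhgap27 and Arhgap27os3.

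**Figure D1:**
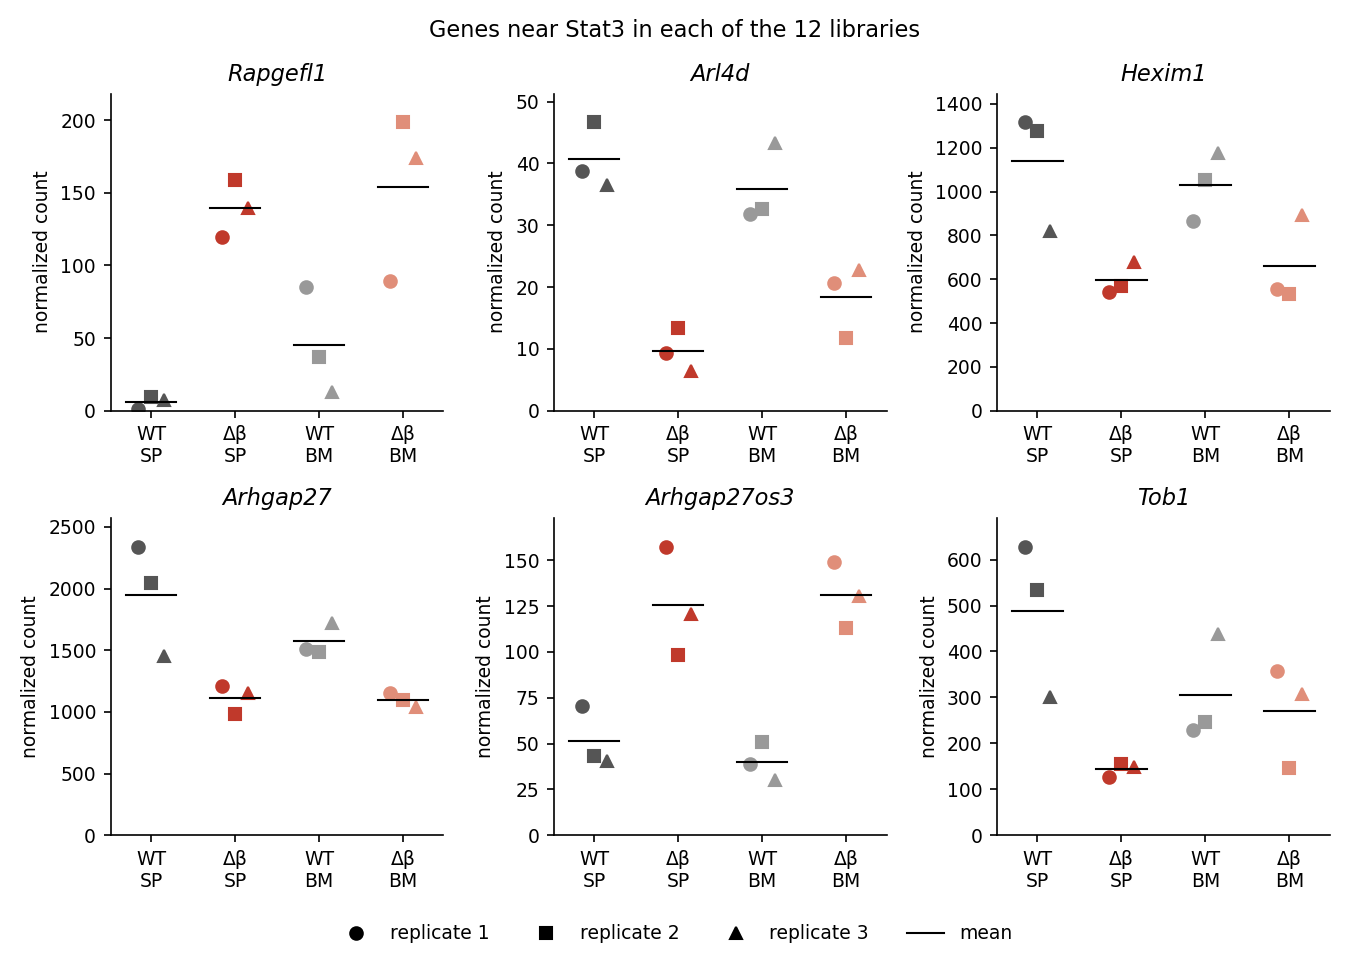
Normalized counts (vertical axes, linear and starting at 0) of the 6 genes in each of the 12 libraries, grouped by genotype and organ, with 1 point per library and a line at the group mean. Rapgefl1 and Arhgap27os3 are higher and Arl4d and Arhgap27 lower in every Δβ library than in every WT library of the same organ, whereas Hexim1 and Tob1 overlap in BM.

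The plot of counts by library shows that WT SP replicate 3 is the lowest WT SP library for Arl4d, Hexim1, Arhgap27, Arhgap27os3 and Tob1. Without it the SP log2 fold changes were -2.01 for Tob1, -1.13 for Hexim1, -0.98 for Arhgap27, -2.07 for Arl4d, 1.14 for Arhgap27os3 and 4.88 for Rapgefl1. Each kept the direction seen with all libraries. Stat3 (NM_213660; chr11:100886806-100939594, minus strand) had group means of 3690 ± 727 and 2936 ± 283 in WT and Δβ SP and of 2955 ± 243 and 2781 ± 439.6 in WT and Δβ BM (SD, n = 3 each), with overlap in both organs, and the deposited values do not separate its splice forms.

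Counts of calls among the 6 genes follow from how they were chosen, and nothing is read from them. With limma and Benjamini-Hochberg adjustment, 1 of 6, Rapgefl1, passed an adjusted p of 0.05 in SP, where 0.105% of all tested genes did, a call lost on leaving out any library other than WT SP replicate 3 and WT BM replicates 1 and 3. By the same test 0 of 6 passed in BM, where 0.0697% did. At an unadjusted p under 0.05 limma counted 5 of 6 there, beside 297 of all 11476 tested genes, and edgeR called 0 of 6. DESeq2 on the recovered reads called 6 of 6 in SP, against 3.98% of all tested genes, and 1 of 6, Arhgap27os3, in BM, against 0.322%. Without WT SP replicate 3, limma called 6 of 6 in SP and 16.4% of all genes. The libraries of the genotypes did not overlap in SP for 6 of 6 genes, as for 17.3% of all tested genes, and in BM for 4 of 6, as for 7.63%. For 4 of 6 they did not overlap in either organ with the same direction, as for 1.77% of all tested genes.

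The organ comparison, SP against BM averaged over the genotypes, is not the difference on which the 6 genes were chosen, and it is their 1 test. It uses the same libraries and, for each gene, the same within-group spread as the genotype differences. It is therefore not fully independent of the choice, whose exact cut is not given. None of the 6 passed limma at an adjusted p of 0.05, nor did any of the 11476 genes tested (0%, with 661 at an unadjusted p under 0.05 and 37 called by DESeq2). Rapgefl1 was lower in SP by a log2 fold change of -1.37 (SE 0.49, adjusted p = 0.845 by limma), and it alone of the 6 had an unadjusted p under 0.05, as 5.76% of all tested genes did. Arl4d had -0.34 (SE 0.25, adjusted p = 0.877 by limma), Arhgap27 0.15 (SE 0.11, adjusted p = 0.877), Arhgap27os3 0.14 (SE 0.20, adjusted p = 0.927), Tob1 -0.07 (SE 0.27, adjusted p = 0.980) and Hexim1 0.01 (SE 0.17, adjusted p = 0.999). The SE of 0.11 to 0.49 leave room for organ differences that this design would not detect. DESeq2 called 0 of 6 for the organ, against 0.322% of all tested genes, and edgeR called 0 of 6.

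**Figure D2:**
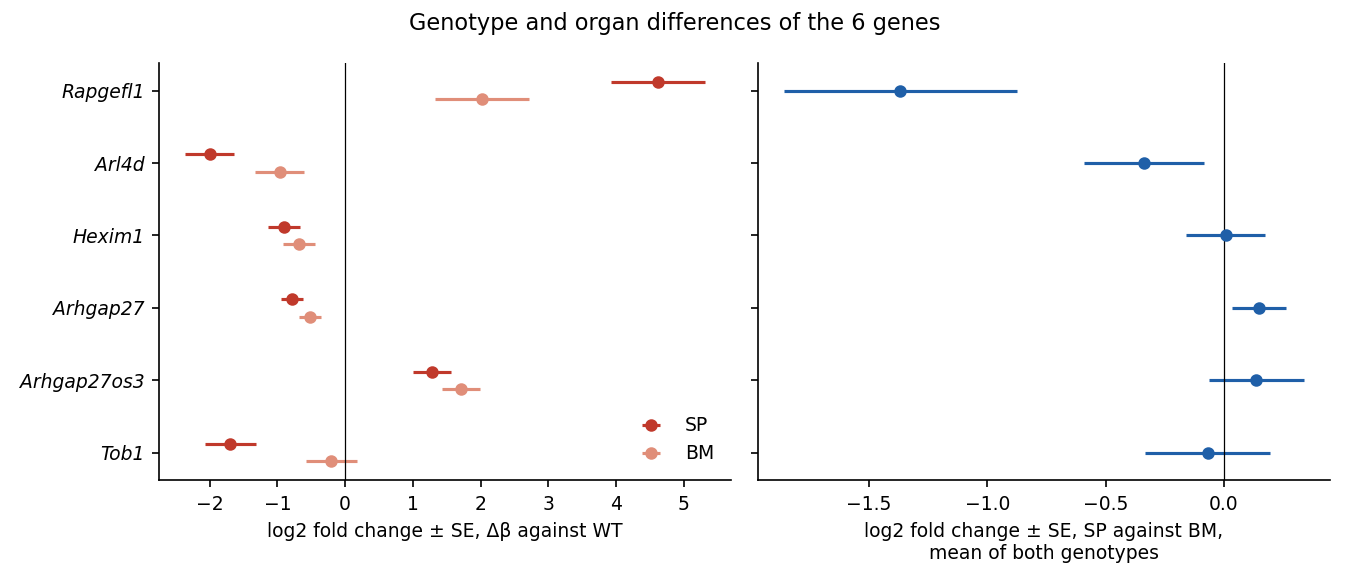
Log2 fold change with its standard error for the 6 genes, Δβ against WT in SP and BM (left panel) and SP against BM averaged over the genotypes (right panel). The genotype differences of Rapgefl1 (4.62 in SP, 2.03 in BM) stand farthest from 0, and in the right panel only Rapgefl1 (-1.37) lies more than 2 standard errors from 0.

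Split by genotype, the log2 fold change of Rapgefl1 in SP against BM was -2.66 (SE 0.69) in WT and -0.07 (SE 0.69) in Δβ. Tob1 went in opposite directions, 0.68 (SE 0.37) in WT and -0.81 (SE 0.37) in Δβ and averaged near 0. Arl4d had 0.18 (SE 0.36) in WT and -0.86 (SE 0.36) in Δβ. These splits share libraries with the genotype differences that chose the genes and are given as values. The order of the 4 groups was accordingly WT SP, WT BM, Δβ BM, Δβ SP for Tob1, Arl4d and Hexim1, from high to low, and within it WT SP and WT BM did not differ beyond their spread for Arl4d and Hexim1, nor WT BM and Δβ BM for Tob1, nor Δβ BM and Δβ SP for Hexim1. For Arhgap27 the groups of one genotype lay within their spread of each other and the genotypes apart, with WT above Δβ, and for Arhgap27os3 the same held with Δβ above WT.

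Per length, as reads per kilobase of exon scaled to the reads of the library (RPKM), a scale on which levels of genes can be compared, the 6 genes fell into abundant and scarce ones. The 4 values that follow for each gene are mean levels for WT then Δβ in SP, and WT then Δβ in BM. Hexim1 had RPKM levels of 27.05, 16.4, 27.2 and 17.8, Arhgap27 of 25.2, 16.6, 22.6 and 16.1, and Tob1 of 17.6, 6.01, 12.2 and 11.1, beside 32.3, 29.4, 28.6 and 27.5 for Stat3. The scarce genes had RPKM levels of 1.57, 4.39, 1.36 and 4.52 for Arhgap27os3, of 2.46, 0.672, 2.39 and 1.25 for Arl4d, and of 0.0890, 2.35, 0.745 and 2.57 for Rapgefl1. Rapgefl1 thus had the lowest level of the 6 in WT SP and lay above Arl4d in Δβ SP.

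The surroundings of the 6 genes were next set against the rest of the genome, to show whether genes near Stat3 in general differed between genotypes. Of the 213 tested genes within 10 Mb, limma called 1 in SP, Rapgefl1 itself, and 0 in BM. In BM 15 of the 213 window genes had an unadjusted p under 0.05, beside 297 of all 11476 tested genes. There edgeR called 0 window genes, and DESeq2 called 1, Arhgap27os3, beside 0.322% of all tested genes. In SP edgeR called 0 window genes. DESeq2 called 15 (7.04%), or 9 of 207 (4.35%) without the 6, beside 3.98% of all tested genes. Without WT SP replicate 3 limma called 42 of the 214 window genes then tested (19.6%), or 36 of 208 (17.3%) without the 6, beside 16.4%. The median absolute log2 fold change of the window was 0.24 in SP and 0.14 in BM, against 0.24 and 0.13 over all tested genes. The libraries of the genotypes did not overlap in SP for 17.8% of window genes (15.5% without the 6), beside 17.3% of all tested genes, and in BM for 12.7% (11.1% without the 6), beside 7.63%. Within 2.5 Mb of Stat3 the BM share was 19.6%, and 16.1% without the 6. By whole chromosome the BM share without overlap ran from 3.88% (chromosome 18) to 13.3% (chromosome 19). The medians of the window were thus close to those of all tested genes. Its BM share without overlap was higher than that of all tested genes but below that of chromosome 19, and these differences were not tested.

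In 7 of the 213 window genes (3.29%) the genotypes did not overlap in either organ and differed in the same direction, and 4 of these are Rapgefl1, Arl4d, Arhgap27 and Arhgap27os3. The other 3, named here after their values were seen, are Msl1, part of a histone acetyltransferase complex, Smarce1, a subunit of the SWI/SNF chromatin remodeling complex, and the cytochrome gene Cyb561. Msl1 had 2771 ± 429 normalized counts in WT SP and 2119 ± 65.1 in Δβ SP, and 2904 ± 192 in WT BM and 2296 ± 335 in Δβ BM (SD, n = 3 each). Smarce1 had 408 ± 22.8 and 326 ± 53.3 in SP and 403 ± 6.08 and 325 ± 29.8 in BM, and Cyb561 125 ± 70.4 and 46.3 ± 19.6 in SP and 100.2 ± 42.3 and 39.0 ± 15.8 in BM, WT before Δβ. All 3 were lower in Δβ. Without the 6 genes, which were chosen for their differences, the share was 3 of 207 (1.45%), beside 2.08% of 770 genes on the rest of chromosome 11 and 1.72% of 10493 genes on other chromosomes. Within 2.5 Mb of Stat3 it was 6 of 92 genes with the 6 included and 2 of 87 (2.30%) without them.

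**Figure D3:**
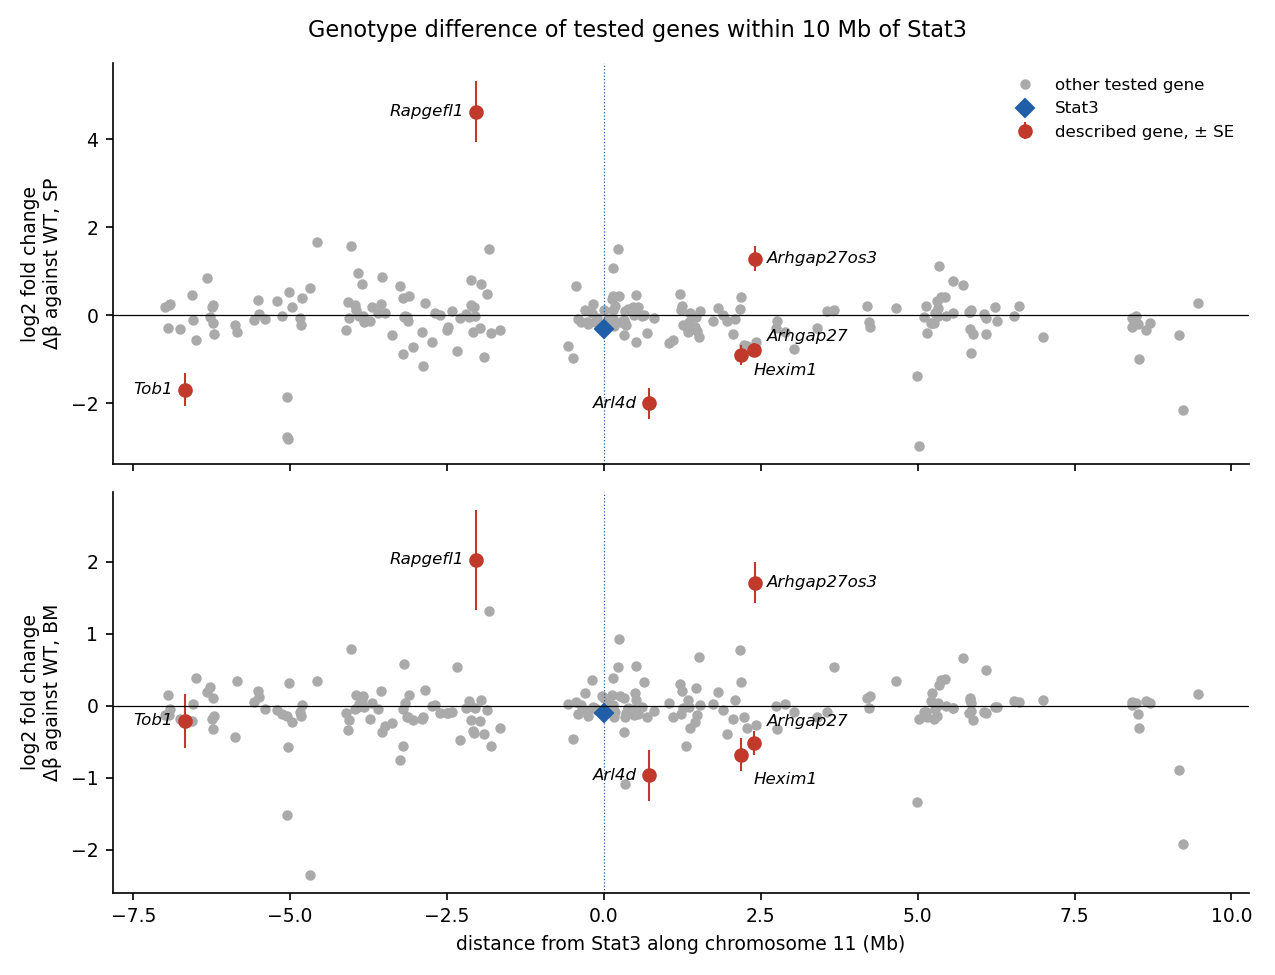
Log2 fold change of Δβ against WT in SP (upper panel) and BM (lower panel) of the 213 tested genes within 10 Mb of Stat3, plotted at their distance from Stat3 in Mb, with the standard error drawn for the 6 genes. Most window genes lie near 0 at every distance, with a median of -0.04 in both organs, and Rapgefl1 is the highest point of both panels (4.62 and 2.03).

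The nearest tested genes on each side of the 6 were then compared between genotypes, without a test of a gene against its neighbor. None of the 10 neighbors outside the 6 passed limma at an adjusted p of 0.05 in either organ (0 of 10 each, with adjusted p from 0.275 to 0.941 in SP), 1 of 10 in each organ had an unadjusted p under 0.05, edgeR and DESeq2 called 0 of 10, and their libraries did not overlap for 2 of 10 in SP and 2 of 10 in BM, where 17.3% and 7.63% of all tested genes did not. Among all 11476 tested genes, 1708 in SP and 297 in BM had an unadjusted p under 0.05 by limma. Casc3, an exon junction complex component 2.98 kb from Rapgefl1, had log2 fold changes of -0.02 (SE 0.13) in SP and -0.03 (SE 0.13) in BM, and Wipf2, 10.6 kb away on the other side, had -0.28 (SE 0.19) and -0.22 (SE 0.19). Neither neighbor of Rapgefl1 had a log2 fold change above 0. Dhx8, an RNA helicase 65.1 kb from Arl4d, had -0.05 (SE 0.16) in SP and -0.08 (SE 0.16) in BM, and Rdm1, 29.5 kb away, had -0.40 (SE 0.30) and -0.16 (SE 0.30).

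Hexim2, the paralog of Hexim1 and 3.54 kb from it, had log2 fold changes of 0.40 (SE 0.36) in SP and 0.33 (SE 0.36) in BM. Its mean was 22.3 normalized counts, and the genotypes did not overlap in SP. Acbd4, 4.13 kb away on the other side, had 0.15 (SE 0.29) in SP and 0.78 (SE 0.29) in BM, without overlap of the genotypes in BM. Neither neighbor of Hexim1 had a log2 fold change below 0. Plekhm1, which takes part in lysosome fusion, lies 14.1 kb from Arhgap27os3 and closer still to the span of Arhgap27. It had -0.62 (SE 0.28) in SP and -0.26 (SE 0.28) in BM. Map3k14, the NF-κB-inducing kinase 64.1 kb from Arhgap27, had -0.70 (SE 0.42) and -0.31 (SE 0.42), without overlap of the genotypes in BM. Plekhm1 and Map3k14 thus had the sign of Arhgap27 (-0.78 and -0.52) in both organs. For Tob1 the neighbors were Spag9, 83.7 kb away with -0.31 (SE 0.22) in SP and -0.19 (SE 0.22) in BM, and Luc7l3, 75.6 kb away. Luc7l3 had 0.46 (SE 0.17) in SP, without overlap of the genotypes there, and -0.21 (SE 0.17) in BM.

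Relatives and partners of the 6 genes elsewhere in the genome were examined as lists chosen with earlier results of these data known. In the BTG/TOB and CCR4-NOT list, 0 of 17 tested genes passed limma in either organ (4 in SP and 0 in BM at an unadjusted p under 0.05), edgeR called 0 in either, and DESeq2 called 3 in SP, Tob1, Btg1 and Btg2, and 0 in BM. Over all 11476 tested genes, limma counted 1708 in SP and 297 in BM at an unadjusted p under 0.05, and DESeq2 called 457 and 37. The median log2 fold change of the list was -0.01 in SP and -0.03 in BM, beside -0.01 and -0.02 over all tested genes. Btg2 and Btg1, the antiproliferative relatives of Tob1, had -1.63 (SE 0.36, adjusted p = 0.162 by limma and 0.000797 by DESeq2) and -1.22 (SE 0.37, adjusted p = 0.225 by limma and 0.0267 by DESeq2) in SP and -0.32 (SE 0.36) and -0.21 (SE 0.37) in BM. Their SP libraries did not overlap between genotypes, as for Tob1. Tob2, the closest paralog of Tob1, had -0.20 (SE 0.19) in SP and -0.15 (SE 0.19) in BM. The deadenylase genes Cnot7 and Cnot8 had -0.30 (SE 0.13) and -0.08 (SE 0.13) in SP and 0.01 (SE 0.13) and 0.02 (SE 0.13) in BM.

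In the list of P-TEFb, the 7SK particle and the super elongation complex, 0 of 21 genes passed limma in either organ, with medians of -0.04 in SP and -0.06 in BM. Cdk9, the kinase that Hexim1 inhibits, had log2 fold changes of -0.18 (SE 0.15) in SP and -0.10 (SE 0.15) in BM. Its cyclins Ccnt1 and Ccnt2 had -0.15 (SE 0.16) and 0.00 (SE 0.15) in SP, and the 7SK-binding proteins Larp7 and Mepce 0.32 (SE 0.19) and 0.03 (SE 0.12). At an unadjusted p under 0.05 limma counted 2 genes in SP and 1 in BM, edgeR called 0 in either organ, and DESeq2 called 1 in SP, Hexim1 itself, and 0 in BM. All 11476 tested genes gave 1708 and 297 by unadjusted limma in SP and BM, and 457 and 37 by DESeq2.

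In the list of Rap exchange factors, Rap GTPases and Rap GAPs, 1 of 21 genes passed limma in SP, Rapgefl1 itself, and 0 passed in BM, with medians of -0.24 and -0.06. Rapgef1, Rapgef2 and Rapgef6, which activate Rap, had -0.46 (SE 0.16), 0.03 (SE 0.20) and -0.16 (SE 0.17) in SP and -0.02 (SE 0.16), -0.02 (SE 0.20) and -0.04 (SE 0.17) in BM. Rap1gap, which switches Rap off and is named after its values were seen, had a log2 fold change of 2.52 (SE 0.82, adjusted p = 0.241 by limma) in SP without overlap of the genotypes, and 0.25 (SE 0.82) in BM. Arhgap9, Arhgap12 and Arhgap15, the relatives of Arhgap27, had -0.33 (SE 0.21), -0.34 (SE 0.66) and -0.12 (SE 0.10) in SP and -0.01 (SE 0.21), -0.47 (SE 0.66) and 0.21 (SE 0.10) in BM. In the ARL4, ARF6 and cytohesin list, 0 of 12 passed in either organ, with medians of -0.37 and -0.11, where Arl4a had 0.04 (SE 0.23) and 0.30 (SE 0.23), Arl4c -0.89 (SE 0.58) and -0.14 (SE 0.58) and the cytohesin Cyth2 -0.31 (SE 0.17) and -0.17 (SE 0.17). At an unadjusted p under 0.05 limma counted 6 genes of the Rap list and 4 of the ARL4 list in SP, and 1 of each in BM. All 11476 tested genes gave 1708 in SP and 297 in BM. DESeq2 called 2 and 3 in SP and 0 in BM, beside 3.98% and 0.322% of all tested genes in SP and BM. By edgeR 0 of either list passed in both organs.

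**Figure D4:**
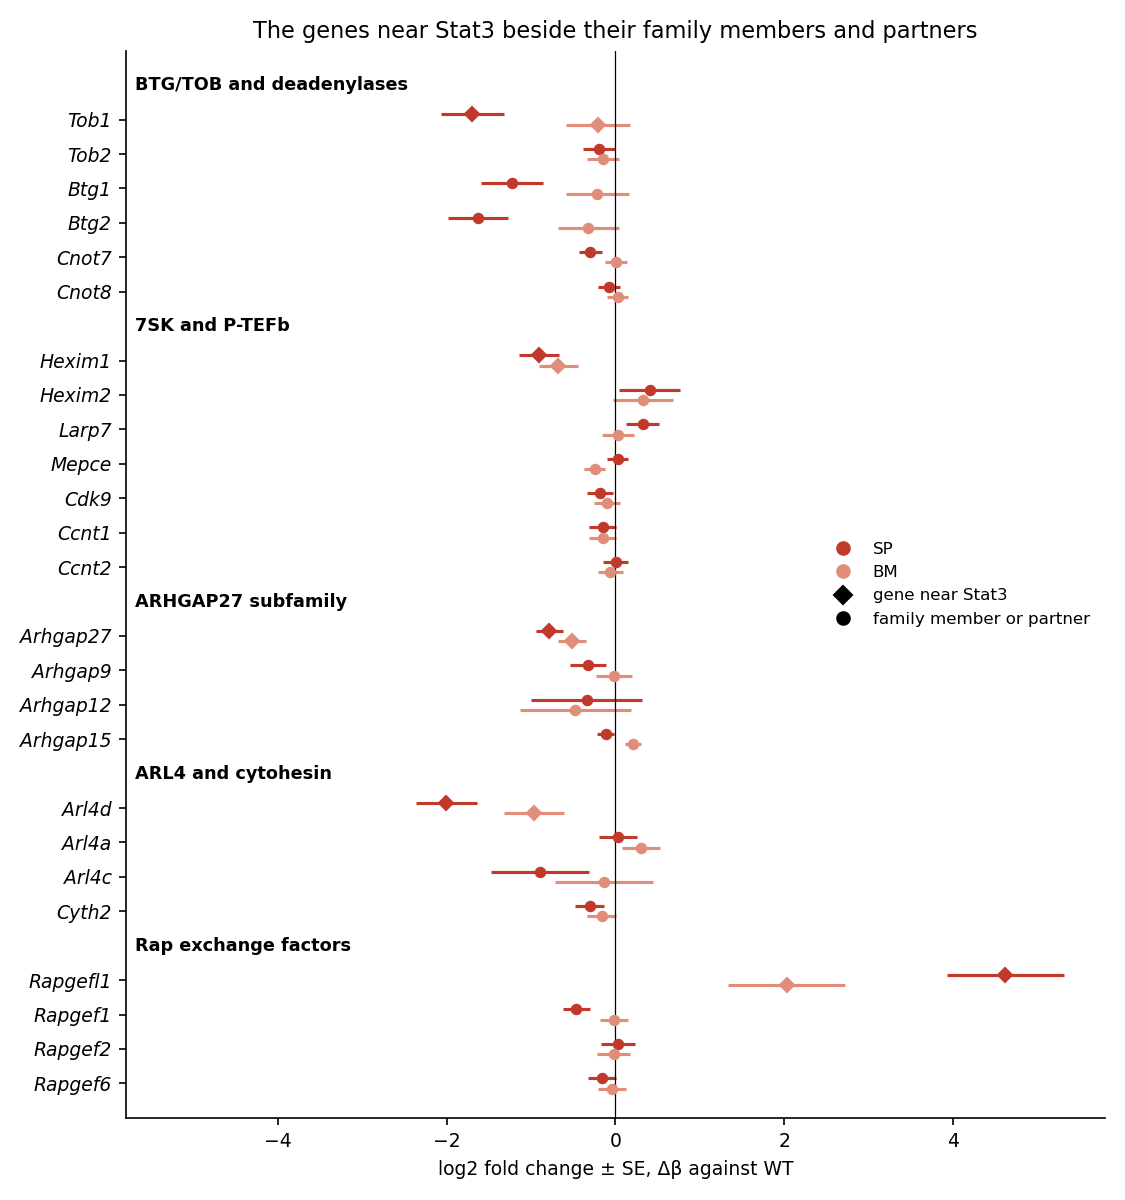
Log2 fold change of Δβ against WT with its standard error in SP and BM for 5 of the 6 genes (diamonds) and for their relatives and partners (circles), grouped by family. Btg1 and Btg2 lie beside Tob1 in SP (-1.22, -1.63 and -1.70), and Rapgef1, Rapgef2 and Rapgef6 lie between -0.46 and 0.03 in SP, beside 4.62 for Rapgefl1.

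Likeness between genes was taken as Pearson's r over the 12 libraries after the group means were removed, so that it follows variation within groups only, and is given as a description over libraries that also share depth and sorting. The genes named have the highest r to each gene among all 11476 tested, so a high r follows from that choice. No baseline for unrelated genes was computed. The genes most like Tob1 were Osm, a cytokine gene on the same chromosome (r = 0.984), and Tollip (r = 0.975). Those most like Arl4d were the immediate early gene Ier2 (r = 0.833) and Atf4, a stress response transcription factor (r = 0.822). Rapgefl1 followed Tnfrsf10b (r = 0.942) and Trip10 (r = 0.925). Hexim1 varied with Dcaf5 (r = 0.965) and A230103J11Rik (r = 0.964). Arhgap27 varied with the myosin gene Myo9b (r = 0.982) and Pttg1ip (r = 0.981), and Arhgap27os3 with Angptl2 (r = 0.941) and Ctns (r = 0.937).

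Among the 6 genes, r within groups over the 12 libraries was 0.679 for Tob1 and Hexim1, 0.658 for Tob1 and Arl4d, and -0.651 for Tob1 and Rapgefl1. Arhgap27 and Arhgap27os3, which differed in opposite directions between genotypes, had r = 0.492 within groups and r = -0.678 over the 12 libraries with group means kept. The sign of r for the divergent pair thus differed within and across the groups. With group means kept, r follows in part from the genotype differences on which both genes were chosen. Stat3 had r = 0.794 with Arhgap27 and r = -0.704 with Rapgefl1 within groups.

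Sums of marker genes differed with genotype in places, and their part in the results was not tested. The summed normalized counts of 9 stromal and endothelial markers, carried mainly by Pecam1 (a mean of 1354), ranged in SP from 1162 to 1227 for WT and from 1584 to 2550 for Δβ, where Rapgefl1 and Arhgap27os3 were higher, and in BM from 837 to 1490 for WT and from 1215 to 2104 for Δβ. The 9 lymphoid markers, carried mainly by Cd79b (a mean of 368), ranged in SP from 296 to 406 for WT and from 427 to 544 for Δβ, and in BM from 236 to 442 for WT and from 373 to 699 for Δβ. Pecam1 and Cd79b are themselves genes of the window, 5.71 and 5.37 Mb from Stat3. Of the 9 stromal and endothelial markers only Pecam1 and Pdgfrb passed the filter for testing. Pecam1 had log2 fold changes of 0.69 (SE 0.25) in SP and 0.66 (SE 0.25) in BM, and Pdgfrb -0.32 (SE 1.18) and -0.27 (SE 1.18). Lepr and Kdr had at most 1 read in any library and Cdh5 at most 3. Of the lymphoid markers only Cd79b, Cd79a and Cd8a passed it, with 0.42 (SE 0.25), -1.18 (SE 0.70) and 1.72 (SE 1.67) in SP. The 9 red pulp macrophage markers ranged in SP from 2418 to 5541 for WT and from 1694 to 3145 for Δβ, and in BM from 4943 to 7210 for WT and from 2403 to 3528 for Δβ, with C1qa, C1qb, C1qc, Cd5l and Spic at 0 in 4 to 9 libraries. Their sum is carried mainly by Vcam1, Slc40a1 and Hmox1 (means of 2123, 921 and 712). These had log2 fold changes of 0.44 (SE 0.40), -0.73 (SE 0.21) and -2.41 (SE 0.72) in SP. In BM they had -1.36 (SE 0.40), -0.20 (SE 0.21) and -1.02 (SE 0.72). The 8 erythroid markers summed to at most 17.3 in any library, and the 10 blast and myeloid markers ranged in SP from 70823 to 81855 for WT and from 58581 to 92285 for Δβ, and in BM from 49936 to 57866 for WT and from 65901 to 87122 for Δβ, where Arl4d and Arhgap27 were lower. That last sum is led by Mpo (a mean of 23606), with log2 fold changes of 1.68 (SE 0.69) in SP and 1.83 (SE 0.69) in BM. Of the 10 blast and myeloid markers, 8 had a log2 fold change below 0 in SP, with a median of -0.67 beside -0.01 over all tested genes, and Itgam at -1.06 (SE 0.30), Cebpa at -0.77 (SE 0.21) and Spi1 at -0.67 (SE 0.19) did so without overlap, in the libraries where Arl4d, Arhgap27, Hexim1 and Tob1 were lower. None of the 10 passed limma in either organ (6 in SP and 1 in BM at an unadjusted p under 0.05, 0 by edgeR, 2 in SP and 0 in BM by DESeq2), and in BM their median was -0.08. All 11476 tested genes gave 1708 and 297 by unadjusted limma in SP and BM, and 457 and 37 by DESeq2.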

How the data were processed

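RNA of Venus-sorted blasts was sequenced by the authors as poly-A enriched libraries, 3 per genotype and organ (12 in all), grouped here by the genotype, organ and replicate number in the labels. The authors deposited 1 table for 24454 genes whose signal values are gene counts divided by a size factor per library. The submitters' processing notes name FastQC, STAR, featureCounts, DESeq2 and GRCm38/mm10, without versions, and strand handling in counting is not given in the sources used here. The header of the table lacks 1 separator, which was restored. In the table, 6 further columns that no sample label describes were not used. Every value was a whole multiple of its library's value of 1 read (100% of values, tolerance 0.001), which gave whole reads for the count tests and a depth of 9001051 to 13859727 reads per library.

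Genes with a mean of at least 10 normalized counts were modelled on log2(normalized count + 1) by limma 3.58.1 under R 4.3.3 (lmFit, then eBayes using its trend option), with 4 group means and Benjamini-Hochberg adjustment over the 11476 genes tested. The contrasts taken were the genotype difference (Δβ minus WT) within each organ, SP minus BM over both genotypes, and the difference of the genotype contrasts. Alternatives tried were no filter, a minimum mean of 50, pseudocounts of 0.25 and 4, TMM rescaling, edgeR 4.0.16 and DESeq2 1.42.0 on the recovered reads, a block for the replicate number, the libraries of 1 organ alone, a window of 5 Mb, and each library left out in turn. The limma, edgeR and DESeq2 fits were also run on simulated counts with known changes, for the genotype difference in each organ and for the organ. The other alternatives and the difference of the genotype contrasts were not simulated.

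Positions come from RefSeq on GRCm38.p6 by Entrez gene (24376 genes matched, 78 not), and strand, exon overlap and exon length from GENCODE M21. The 6 genes and all gene lists were chosen with earlier results of these data known, and some list results are not reported here. Genes named are the 6, Stat3, the nearest tested gene on each side of each, the 2 genes with the highest r to each within groups, other window genes past limma's threshold, and, from each list, genes past the threshold or the closest relatives and partners. Any others are said to be named after their values were seen.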

Additional observations from a re-analysis of the deposited data

How the results depend on the processing

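Of the 213 window genes, limma called 1 in SP, and 0 with a pseudocount of 0.25, with no filter, with a minimum mean of 50, after TMM rescaling, with edgeR, with the replicate block or from the 6 SP libraries alone. DESeq2 called 15, and leaving out 1 library gave 0 to 42, the highest without WT SP replicate 3. In BM the count was 0, 1 with DESeq2, and 0 to 1 with 1 library left out, the 1 without WT SP replicate 1. For the organ, 0 of the 6 genes passed in each alternative run. Over all tested genes limma called 12 in SP and 8 in BM, DESeq2 457 and 37, the replicate block 2 and 5, and limma without WT SP replicate 3 called 1886 in SP. The cause of these differences was not tested. The replicate numbers were taken as a block only as an alternative: SP and BM deviations of the same number had r of 0.608 to 0.664 in Δβ, each library there being most like its own number, but -0.24 to -0.0094 in WT, and the block changed no call among the 6 for the organ. For the organ the block was the number within a genotype. For the genotype differences it was the number alone, which pairs WT with Δβ libraries although their same-numbered deviations had a mean r of 0.0078 in SP and -0.015 in BM. Arl4d falls out at a minimum mean of 50. Leaving out libraries turned the BM difference of Tob1 (-0.46 to 0.19) and the organ differences of Tob1 (-0.27 to 0.087, the highest without WT SP replicate 3) and Hexim1 (-0.061 to 0.13, and -0.0056 with edgeR). Reads of 1 to 9 in WT SP limit the fold of Rapgefl1, and 6 to 12 in Δβ SP that of Arl4d.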
